A study of Sus scrofa with 32 samples.

Results

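The longissimus dorsi, or loin muscle, of pure Iberian pig fetuses was compared between the 5 fetuses whose RNA held most and the 5 whose RNA held least of 4 adipocyte transcripts. They were chosen from 16 pure Iberian fetuses, in a series of 32 that also holds 16 crossbred fetuses, by a score: the mean of log2(FPKM + 0.5) of ADIPOQ, PLIN1, FABP4 and CIDEC, with FPKM the number of sequenced fragments scaled to transcript length and to library size. The 5 highest scores are called adipocyte-rich and the 5 lowest adipocyte-poor, and the remaining 6 fetuses are the other Iberian fetuses. Because measured values chose the groups, the differences between them are a description and carry no test. The 16 crossbred fetuses had no part in the choice, and the tests on genes were run in them. Sex was also compared in the Iberian fetuses.

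All fetuses were collected on gestational day 77 from purebred Iberian sows that had been inseminated with mixed semen of Iberian and Large White boars and were fed a restricted diet, so that both genotypes shared a uterus and a restricted mother. The pure Iberian group held 8 females and 8 males, as did the crossbred Iberian x Large White group. The fetuses had been selected by the study for high or low body weight. In its Iberian fetuses of low weight the study reported less of the score genes ADIPOQ, PLIN1 and CIDEC than in those of high weight. It reported the same for LPL, DGAT2, CEBPA and PCK1. The labels do not give the weight class of a fetus, so the part of weight in the differences was not tested. Each library came from the loin of 1 fetus, and no histology was among the files, so "rich" and "poor" refer to transcripts only.

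Adipocytes form in the connective tissue between muscle fibre bundles from mesenchymal precursors. C/EBP factors and the nuclear receptor PPARG switch on the genes for fatty acid uptake, triglyceride assembly and the coat of the lipid droplet. In fetal loin the same tissue is building its secondary fibres, so precursors of fat and of muscle fibres share the sample. In a bulk sample, fewer cells of a type and less RNA per cell cannot be told apart.

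The adipocyte-rich fetuses were 1417F3L, 1404F2L, 1410F5L, 1404F5L and 1404F1L, with scores of 5.87, 5.43, 4.78, 4.46 and 4.3. The adipocyte-poor fetuses were 1410F3L, 1410F6L, 1401F2L, 1340F7L and 1410F2L, with scores of 1.83, 1.21, 1.2, 1.17 and 0.781. Per-fetus values below follow this order. No clear break in the score marked either limit. Just outside the rich group lay 1401F8L at 4.1 and 1404F7L at 4.03, and just outside the poor group lay 1401F4L at 1.86. The crossbred scores ran from 0.607 to 3.66, with a median of 1.66, so that every rich Iberian fetus lay above every crossbred fetus.

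**Figure D1:**
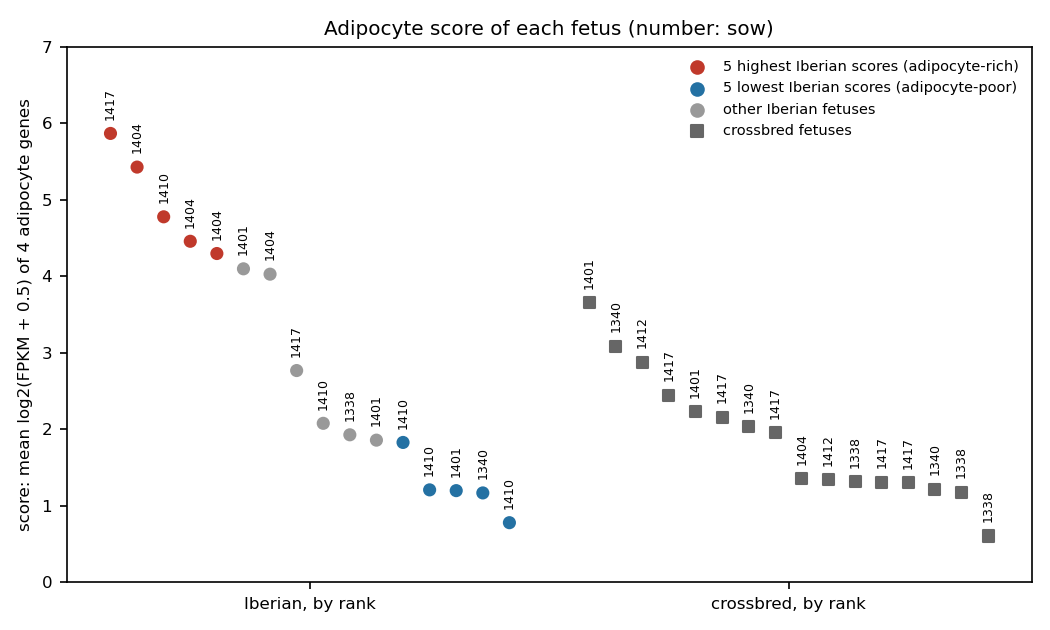
Score of each fetus (mean log2(FPKM + 0.5) of ADIPOQ, PLIN1, FABP4 and CIDEC, vertical axis) against its rank within the 16 Iberian (circles) and 16 crossbred fetuses (squares), with the sow number beside each point. The 5 rich fetuses lie between 4.3 and 5.87, the 5 poor ones between 0.781 and 1.83, and the crossbred fetuses between 0.607 and 3.66.

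ADIPOQ, which encodes the adipocyte hormone adiponectin, stood at 109, 96.8, 68, 38.1 and 43.3 FPKM in the rich fetuses and at 3.04, 0.839, 0.425, 0.848 and 0.492 FPKM in the poor ones. PLIN1, the coat protein of the adipocyte lipid droplet, spanned 21.6 to 83.8 FPKM against 0.243 to 1.98 FPKM. FABP4, the fatty acid carrier of adipocytes, spanned 91.4 to 201 FPKM against 21.1 to 39.2 FPKM, so the poor samples still held it at a moderate level. CIDEC, a lipid droplet fusion protein, was low throughout, at 1.08 to 5.78 FPKM against 0.0404 to 0.171 FPKM. These 4 values are what the rule used.

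Litter was unevenly spread over the groups. Reading the first 4 digits of a fetus name as its sow, 3 rich fetuses came from sow 1404, 1 from 1410 and 1 from 1417, and 3 poor fetuses came from sow 1410, 1 from 1401 and 1 from 1340. All 4 Iberian fetuses of sow 1404 had a score of at least 4.03, whereas the 5 of sow 1410 spanned 0.781 to 4.78. Sex was more evenly spread between the rich and poor groups, with 3 females among the rich and 4 among the poor fetuses (Fisher's exact test, two-sided p = 1). The 6 other Iberian fetuses were 1 female and 5 males, so the fetuses compared were mostly females. The score of the 8 Iberian females was 2.81 ± 2.16 (mean ± SD) and that of the 8 males 3.16 ± 1.18, a difference smaller than the spread (exact permutation test, two-sided p = 0.698).

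Relative sequencing depth, read from the steps between low FPKM values, was 0.828 to 1.22 of the average in the rich and 0.893 to 1.41 in the poor libraries. Between 14921 and 15666 loci exceeded 0.5 FPKM in a rich library and between 15187 and 16761 in a poor one. Depth therefore leaned towards the poor group, and its part in the differences was not tested. In library 1417F3L the collagens COL1A1 and COL3A1 are listed at 0 FPKM although the other rich libraries held 3500 FPKM or more of each (COL3A1 at a merged locus). Such zeros, found in 49 loci with a median over 20 FPKM, were not read as absence.

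Outside the score genes, 16819 loci averaged more than 0.5 FPKM among the rich or among the poor fetuses. Loci whose 5 rich values lay all on one side of the 5 poor values, with a difference of at least 1.3-fold, are called separated. Separated higher in the rich fetuses were 722 loci (4.29%), and separated lower were 952 loci (5.66%), 9.95% in either direction. These percentages are the background against which the gene groups below are read. The median log2 difference over all loci was -0.0186. The filter was passed through one group alone by 1864 loci, among them 127 of the separated higher and 199 of the separated lower ones. The means of such loci had to differ in that direction, which is what "had to differ" says below. The filter set neither the size of the difference nor the lack of overlap.

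The main pair of transcription factors of the adipocyte programme were among the separated loci. PPARG, the nuclear receptor on which adipocyte formation depends, measured 42.6, 26.4, 25.6, 15.1 and 10.4 FPKM in the rich fetuses and 2.39, 2.6, 2.89, 2.19 and 1.65 FPKM in the poor ones. The lowest rich value was thus well above the highest poor value, and the means were 24 ± 12.5 and 2.34 ± 0.466 FPKM (SD, n = 5 each). CEBPA, its partner in terminal differentiation, measured 46, 23.5, 22.6, 16 and 11.6 FPKM against 2.78, 4.15, 4.33, 3.32 and 2.16 FPKM. Both factors followed the order of the score within the rich group, with 1417F3L highest and 1404F1L lowest. Of the 12 regulators of adipocyte formation listed, these were the only separated members, and the list median was 0.295 on the log2 scale. CEBPB, which acts before PPARG, averaged 10.8 ± 2.96 FPKM against 5.77 ± 1.63 FPKM and overlapped. PDGFRA, the receptor that marks the precursors of fat and fibrous tissue, averaged 33.1 ± 4.74 FPKM against 29.5 ± 7.17 FPKM.

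Among named separated loci outside the score genes, DGAT2 and PCK1 of triglyceride assembly differed most, whereas their list as a whole was mixed. DGAT2, which adds the last fatty acid to make triglyceride, measured 68.6, 43.5, 36.4, 23.2 and 24.6 FPKM in the rich fetuses and 0.73, 0.931, 0.373, 0.317 and 0.188 FPKM in the poor ones. This was a log2 difference of 5.24, the largest among separated loci with a gene name outside the score genes. PCK1, the enzyme that supplies the glycerol backbone from small carbon precursors in adipocytes, measured 27.4, 17.7, 14.3, 9.87 and 6.36 FPKM against 0.472, 0.31, 0.138, 0.242 and 0.124 FPKM. Its mean was 15.1 ± 8.08 FPKM in the rich fetuses and 0.257 ± 0.143 FPKM in the poor ones (mean ± SD, n = 5 each, as in all such pairs below). TUSC5, also named TRARG1, which acts in the traffic of the insulin-responsive glucose carrier of adipocytes, averaged 12.2 ± 8.22 FPKM against 0.113 ± 0.106 FPKM. PNPLA3, a lipid droplet hydrolase, reached 1.26 to 5.22 FPKM in the rich fetuses and at most 0.285 FPKM in the poor ones. In the triglyceride assembly list 4 of 13 loci were separated higher and 2 lower. The lower pair were MOGAT1, a monoacylglycerol acyltransferase, at a mean of 9.32 against 21 FPKM, and the merged locus of LPIN2, a phosphatidate phosphatase, and MYOM1, a protein of the sarcomere M-band, at 75 ± 29.6 against 155 ± 30.4 FPKM. The reads of the 2 genes cannot be told apart, and the locus is counted again among the sarcomere loci. PCK1 and PNPLA3 passed the filter through the rich group alone and so had to differ, and without such loci the list median was -0.207 and not 0.407. The same holds for TUSC5, which belongs to the list of insulin response genes and not to this one.

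The stretches before the annotated starts of DGAT2, PCK1 and CEBPA are shown because these genes differed widely in the Iberian fetuses and also passed the test in the crossbred fetuses. They are 250 bases each on the Sscrofa11.1 genome with RefSeq gene starts, 5′ to 3′ on the strand of the gene. DGAT2 lies on chromosome 9 at 10032163 to 10066082 (plus strand) and the stretch is chr9:10031913-10032162. PCK1 lies on chromosome 17 at 57930507 to 57936523 (plus strand) and the stretch is chr17:57930257-57930506. CEBPA lies on chromosome 6 at 43083200 to 43085884 (minus strand) and the stretch is chr6:43085885-43086134. Capitals mark matches, on either strand, to a C/EBP motif (TTGCNNAA), a MEF2 motif, an E-box (CANNTG), a TATA motif (TATAAA) and a CRE motif (TGACGTNA), and no 2 matches overlap.
DGAT2: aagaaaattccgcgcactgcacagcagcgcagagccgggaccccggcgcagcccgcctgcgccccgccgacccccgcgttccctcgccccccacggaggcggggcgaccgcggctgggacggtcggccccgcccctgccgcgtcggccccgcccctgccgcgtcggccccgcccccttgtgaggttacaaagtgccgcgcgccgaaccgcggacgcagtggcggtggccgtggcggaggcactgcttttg
PCK1: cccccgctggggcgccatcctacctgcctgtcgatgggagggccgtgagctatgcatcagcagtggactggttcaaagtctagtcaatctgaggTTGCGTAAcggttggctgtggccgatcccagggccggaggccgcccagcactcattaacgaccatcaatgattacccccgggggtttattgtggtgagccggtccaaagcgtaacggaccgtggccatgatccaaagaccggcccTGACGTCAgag
CEBPA: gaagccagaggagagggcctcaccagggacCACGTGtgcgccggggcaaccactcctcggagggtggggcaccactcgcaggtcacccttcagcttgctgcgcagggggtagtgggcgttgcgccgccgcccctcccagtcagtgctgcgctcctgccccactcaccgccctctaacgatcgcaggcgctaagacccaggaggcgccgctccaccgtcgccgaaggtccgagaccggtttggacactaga

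The PCK1 stretch held 1 C/EBP match beginning at position -156 and 1 CRE match beginning at position -11, counted from the gene start. Of 19531 promoters of the same length in the annotation, 8.2% held the C/EBP letters and 2.8% the CRE letters. The CEBPA stretch held 1 E-box match, letters that 61.9% of promoters hold, and the DGAT2 stretch held no match to the 5 motifs.

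Fewer genes of fatty acid synthesis differed. THRSP, a nuclear protein that promotes fat synthesis, measured 69.8, 54.2, 32.7, 26.1 and 21.2 FPKM in the rich fetuses and 5.36, 4.77, 5.46, 0.86 and 2.47 FPKM in the poor ones. PC, the pyruvate carboxylase that feeds carbon to this pathway, averaged 19.8 ± 7.52 FPKM against 5.61 ± 1.17 FPKM. FASN, the fatty acid synthase, averaged 46 ± 17.3 FPKM against 19.2 ± 3.46 FPKM. These were the 3 separated loci of 14, all higher, and the list median was 0.415. SCD, which adds the first double bond, overlapped at 11.6 ± 5.71 against 6.21 ± 1.86 FPKM. ELOVL6, which lengthens the chain and shares a merged locus, was on the other side at 13 ± 3.32 against 22.7 ± 4.67 FPKM, also overlapping.

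Lipid uptake and transport held 5 separated loci of 13, all higher. LPL, the lipoprotein lipase that releases fatty acids from circulating particles, measured 151, 117, 76.4, 64.6 and 48.4 FPKM against 28, 28.8, 22.7, 22.5 and 17.9 FPKM. APOE, a lipoprotein ligand made by adipocytes and macrophages, averaged 588 ± 306 FPKM against 139 ± 45.2 FPKM. The other members were ANGPTL4, an inhibitor of LPL, at a log2 difference of 1.13, FABP5, a fatty acid carrier, at 0.93, and GPIHBP1, which anchors LPL on capillaries, at 0.64. The list median was 0.358.

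Lipolysis held 4 separated loci of 10, all higher, and its median was 0.546. HCAR1 and ACVR1C among them passed the filter through the rich group alone and so had to differ, and without the 3 loci of this kind the median was 0.215. ABHD5, the activator of the droplet lipase, averaged 13.3 ± 6.3 FPKM against 4.19 ± 0.892 FPKM. LIPE, the hormone-sensitive lipase, averaged 12.1 ± 3.66 FPKM against 4.83 ± 0.541 FPKM. HCAR1, the lactate receptor of adipocytes, and ACVR1C, an activin receptor found on adipocytes, were at or below 1.42 and 1.16 FPKM even in the rich fetuses. The lipid droplet list, without the score genes, held no separated locus of 12. Its member PLIN2, the droplet coat protein found in most cells, averaged 7.68 ± 0.726 FPKM against 7.82 ± 1.98 FPKM. CIDEA, at a merged locus, averaged 30.2 ± 8.54 FPKM against 19.2 ± 3.48 FPKM and overlapped.

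**Figure D2:**
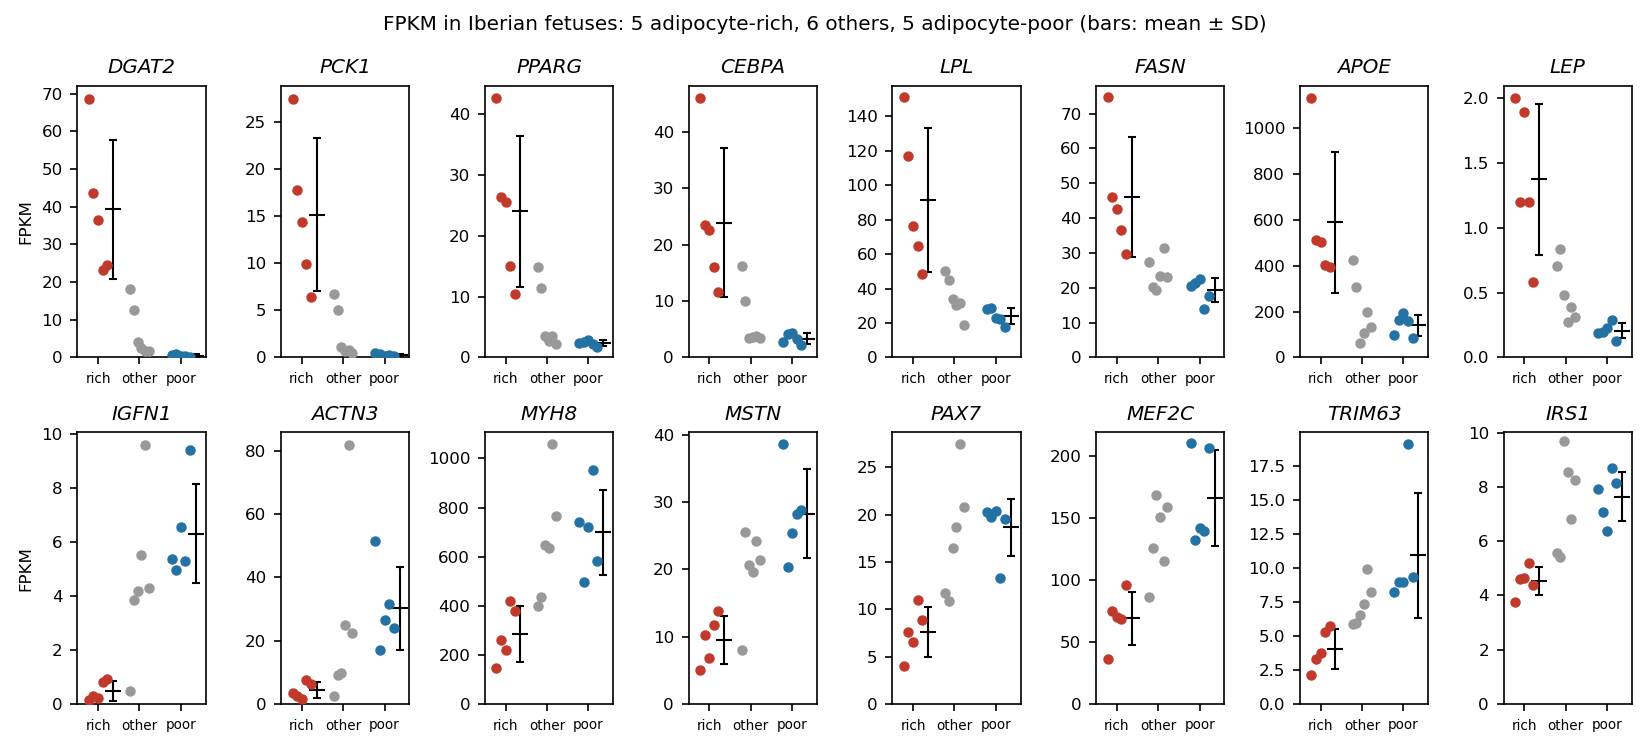
FPKM of 16 genes in each Iberian fetus (vertical axes start at 0; 5 rich in red, 6 others in grey, 5 poor in blue; bars are mean ± SD of the 5). DGAT2 lies between 23.2 and 68.6 FPKM in the rich and below 1 FPKM in the poor fetuses, and ACTN3 lies between 1.61 and 7.54 FPKM in the rich and between 17.1 and 51.5 FPKM in the poor fetuses.

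Of 14 genes for secreted adipocyte products, 5 were separated and all 5 were higher, and the list median was 0.462. LEP among them passed the filter through the rich group alone and so had to differ, and without it the median was 0.426. CFD, the complement protease adipsin, averaged 42 ± 17 FPKM against 13.2 ± 4.92 FPKM. LEP, the satiety hormone leptin, was at 2, 1.2, 1.89, 1.2 and 0.58 FPKM in the rich fetuses and 0.191, 0.198, 0.224, 0.291 and 0.128 FPKM in the poor ones. RBP4, the retinol carrier, averaged 7.01 ± 2.93 FPKM against 2.8 ± 1.11 FPKM. The leptin receptor LEPR went the other way, at 1.58 ± 0.751 against 3.61 ± 0.999 FPKM, and overlapped between 1404F5L (2.43 FPKM) and 1340F7L (2.37 FPKM). THRB, a thyroid hormone receptor, averaged 2.9 ± 0.907 FPKM against 0.867 ± 0.231 FPKM and was separated higher.

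Insulin response genes did not share a direction. IRS1, the docking protein of the insulin receptor, was separated lower at 4.52 ± 0.523 against 7.65 ± 0.909 FPKM. SLC2A4, the insulin-responsive glucose carrier, averaged 8.46 ± 2.04 FPKM against 5.19 ± 1.31 FPKM and overlapped. The list median was 0.022. Of 10 loci on the list of thermogenic genes, 1 was separated lower and 1 higher. The lower one was ZIC1, a zinc finger factor of brown precursors in mouse, at 3.68 ± 1.71 against 8.88 ± 1.22 FPKM. The higher one, EVA1A, is not an established thermogenic gene and was at 1.27 ± 0.181 against 0.663 ± 0.192 FPKM.

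Among the 15 named loci that were highest in the rich fetuses, several are not adipocyte enzymes. EFEMP1, an extracellular matrix glycoprotein, measured 38.6, 23.4, 44.9, 14.1 and 12.9 FPKM against 1.79, 3.49, 2.09, 4.36 and 1.02 FPKM. CLU, a secreted chaperone, averaged 40.2 ± 21.2 FPKM against 4.64 ± 1.38 FPKM. FCN2, a lectin of the complement system, averaged 65.6 ± 39.6 FPKM against 7.78 ± 2.45 FPKM. ACP5, the tartrate-resistant phosphatase of macrophages and osteoclasts, spread from 3.01 FPKM in 1404F2L to 43.1 FPKM in 1404F5L, against 0.978 to 1.55 FPKM. GPX3, the secreted glutathione peroxidase, averaged 32.6 ± 29.5 FPKM against 4.32 ± 2.4 FPKM, with 1417F3L at 84.4 FPKM far above the other rich fetuses. LGALS12, a galectin of adipocytes, averaged 3.96 ± 2.09 FPKM against 0.151 ± 0.0815 FPKM. The kinase gene SGK2 averaged 2.86 ± 1.17 FPKM against 0.0591 ± 0.022 FPKM. TBX1, a T-box transcription factor, was at 3.13 to 4.97 FPKM against 0.165 to 0.372 FPKM. LGALS12, SGK2 and TBX1 passed the filter through the rich group alone and so had to differ.

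The genes separated lower were led by muscle. IGFN1, a fibre protein of the immunoglobulin and fibronectin type, measured 0.133, 0.284, 0.201, 0.81 and 0.929 FPKM in the rich fetuses and 5.36, 4.96, 6.55, 5.29 and 9.39 FPKM in the poor ones. IGFN1 passed the filter through the poor group alone and so had to differ. ACTN3, the Z-disc actinin of fast fibres, measured 3.56, 2.43, 1.61, 7.54 and 6.22 FPKM against 51.5, 17.1, 26.6, 31.7 and 24 FPKM. MYBPC2, the fast myosin-binding protein, averaged 3.39 ± 2.79 FPKM against 14.3 ± 6.66 FPKM. The 3 rich fetuses with the highest scores, all females, held less of IGFN1, ACTN3 and MYBPC2 than the 2 rich males 1404F5L and 1404F1L. The merged locus of CHI3L1 and MYBPH averaged 56 ± 22.6 FPKM against 226 ± 63 FPKM, and the merged locus that carries STAC, an adaptor of calcium channels, 4.23 ± 1.38 against 24.1 ± 3.48 FPKM.

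The other loci among the 15 lowest had smaller levels or other roles. RPRM, a cell cycle arrest protein, averaged 3.06 ± 1.66 FPKM against 14.3 ± 3.77 FPKM. TSPAN2, a tetraspanin, averaged 4.05 ± 1.66 FPKM against 17.2 ± 4.92 FPKM, and the merged locus of EAF2 and SLC15A2, a peptide carrier, 4.19 ± 1.58 against 16.5 ± 4.18 FPKM. The 5 loci PRRT1B, SLC30A8 (a zinc carrier), PSP-II (a spermadhesin known from boar seminal plasma), VIT (a matrix protein) and HOXC10 had means under 1 FPKM in the rich fetuses. Of these, SLC30A8, PSP-II and HOXC10 passed the filter through the poor group alone and so had to differ. CASQ2, the calcium store protein, is annotated at 2 loci. The weaker averaged 7.04 ± 3.42 against 26.1 ± 10.6 FPKM and the stronger 146 ± 53.9 against 274 ± 48.3 FPKM, both separated lower. ATP10A is also annotated at 2 loci, of which 1 was separated lower, at 0.592 ± 0.469 against 3.06 ± 0.595 FPKM, and the other was at 3.48 ± 0.705 against 2.71 ± 0.359 FPKM, so the assignment of reads between them is uncertain.

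Of 33 sarcomere loci, 5 were separated lower, the merged locus of LPIN2 and MYOM1 among them, and none higher, 3 lay above 0 and the median log2 difference was -0.655. MYH8, the perinatal myosin heavy chain, measured 146, 261, 220, 419 and 380 FPKM against 740, 498, 721, 954 and 582 FPKM. MYH3, the embryonic myosin heavy chain, averaged 298 ± 140 FPKM against 541 ± 83.5 FPKM and overlapped. ACTA1, the skeletal actin and the most abundant fibre transcript named here, averaged 5600 ± 2350 FPKM against 6270 ± 2000 FPKM, so that the group difference was far smaller than the spread. CKM, the muscle creatine kinase, averaged 376 ± 168 FPKM against 671 ± 304 FPKM and overlapped. MYH2, a fast myosin heavy chain of later fibres, was on the other side at 96.9 ± 42.2 against 47.2 ± 6.46 FPKM, with overlap.

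Calcium handling held 4 separated lower loci of 17, with all 17 below 0 and a median of -0.806. SRL, a calcium-binding protein of the sarcoplasmic reticulum, averaged 199 ± 74.6 FPKM against 416 ± 31 FPKM. SLN, which regulates the calcium pump, averaged 536 ± 223 FPKM against 1070 ± 217 FPKM, and SCN4A, the muscle sodium channel, 6.08 ± 2.27 against 11.8 ± 1.93 FPKM. Of 17 muscle energy genes 2 were separated lower, AMPD1, the muscle AMP deaminase, and PRKAG3, a muscle subunit of the AMP-activated kinase, at log2 differences of -1.11 and -0.96. The respiratory chain list, by contrast, held no separated locus of 19 and had a median of 0.166, and fatty acid oxidation held 1 of 20, CPT1A, the gatekeeper of mitochondrial fatty acid entry, higher at 3.76 ± 0.454 against 2.39 ± 0.322 FPKM.

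Among the regulators of muscle formation, 7 of 16 were separated lower, none higher, all 16 lay below 0 and the median was -0.84. MSTN, the secreted brake on muscle growth, measured 5.08, 10.3, 6.86, 11.8 and 13.8 FPKM against 38.7, 20.4, 25.5, 28.2 and 28.8 FPKM. PAX7, the factor of muscle stem cells, measured 3.97, 7.63, 6.56, 11 and 8.88 FPKM against 20.3, 19.7, 20.4, 13.3 and 19.5 FPKM. CDH15, the cadherin of myoblasts, averaged 40.2 ± 15.7 FPKM against 87.4 ± 12.3 FPKM. CHRNA1, the acetylcholine receptor subunit of the fibre membrane, averaged 19.3 ± 6.3 FPKM against 42.7 ± 2.82 FPKM, and the merged locus of MEF2C, a transcription factor of differentiating fibres, 69 ± 21.5 against 166 ± 38.7 FPKM. MYOD1 and MYOG, the factors of commitment and differentiation, averaged 31.3 ± 11.6 against 56.6 ± 17.1 FPKM and 94.9 ± 34.3 against 164 ± 38.2 FPKM, and both overlapped. PAX7 of stem cells, CDH15 of myoblasts and CHRNA1 of fibres were therefore lower side by side. The fibre transcripts ACTA1, CKM and MYH3 overlapped, and MYH2 was on the other side with overlap.

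The stretch before MSTN is shown as the counterpart from the muscle side. MSTN lies on chromosome 15 at 94623526 to 94628440 (minus strand), and the 150 bases from 250 to 101 bases before its annotated start are chr15:94628541-94628690. Capitals mark the same motifs.
MSTN: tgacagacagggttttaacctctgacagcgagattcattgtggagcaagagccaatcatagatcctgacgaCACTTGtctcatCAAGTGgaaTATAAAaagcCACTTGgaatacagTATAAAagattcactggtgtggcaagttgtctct

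The stretch held 3 E-box matches and 2 TATA matches. Over the same 150 bases of the 19531 promoters, 45.8% held an E-box and 5.88% the TATA letters.

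Among 12 genes of protein breakdown, 3 were separated lower and none higher. TRIM63, a ubiquitin ligase that marks fibre proteins for breakdown, measured 2.16, 3.31, 3.71, 5.31 and 5.71 FPKM in the rich fetuses and 8.25, 8.96, 8.98, 19.1 and 9.33 FPKM in the poor ones. FBXO32, another ligase of muscle breakdown, averaged 2.77 ± 0.761 FPKM against 10.1 ± 9.78 FPKM, and 1340F7L at 27.6 FPKM carried much of that mean. FBXO30 averaged 10.4 ± 1.7 FPKM against 16.3 ± 2.56 FPKM. In the growth factor list IGF1R, the receptor, was separated lower at 3.48 ± 0.493 against 5.93 ± 1.66 FPKM, IGFBP4, a binding protein, was separated higher at 98.7 ± 23.1 against 49.8 ± 10.1 FPKM, and IGF1 itself overlapped at 7.96 ± 2.76 against 5.43 ± 1.49 FPKM.

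**Figure D3:**
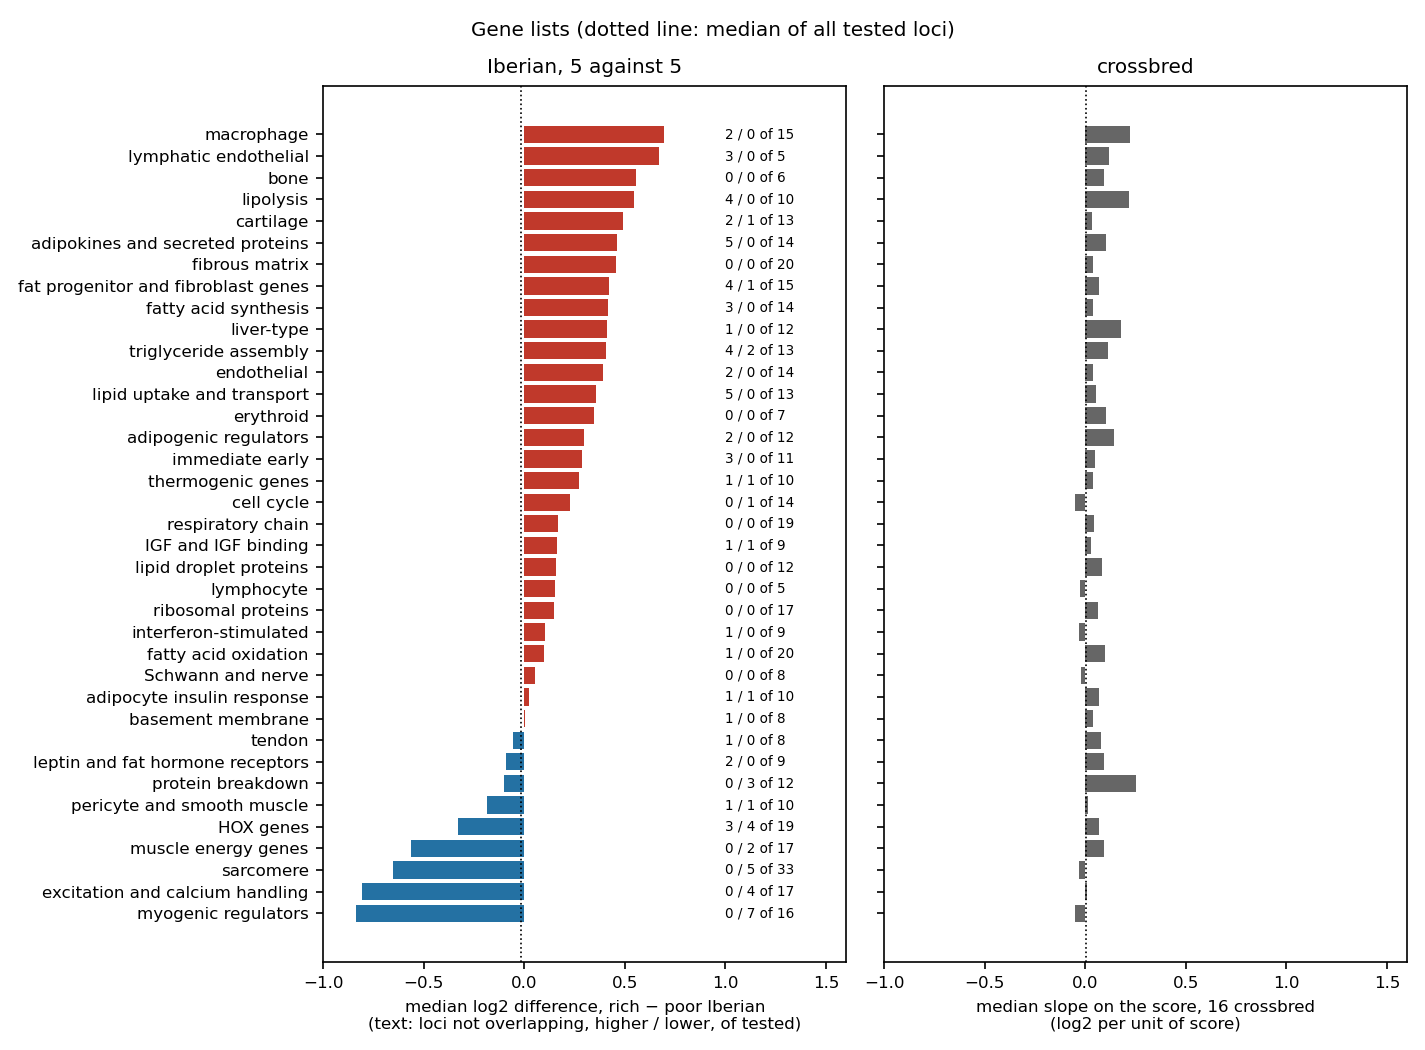
Median log2 difference (rich minus poor Iberian fetuses) of each gene list with at least 5 tested loci on the left (numbers beside the bars count loci separated higher and lower, of those tested) and median slope on the score in the 16 crossbred fetuses on the right, with the dotted line at the median of all loci. Myogenic regulators stand lowest in the Iberian fetuses at -0.84, whereas their median crossbred slope is -0.0505.

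Markers of other cell types differed in part between the same groups. Macrophage genes had a median of 0.694, with all 15 loci above 0 and 2 separated higher. Their summed level was 1681 to 3209 FPKM in the rich and 1318 to 2819 FPKM in the poor fetuses. This sum came mostly from members other than TYROBP, CD163 and LYVE1, so it does not measure these markers. TYROBP, a signalling adaptor of macrophages, averaged 30.3 ± 15.6 FPKM against 13.9 ± 6.6 FPKM, and the scavenger receptor CD163 7.99 ± 1.54 against 6.04 ± 5.86 FPKM. LYVE1, found on resident macrophages and lymphatic vessels, averaged 28 ± 11.3 FPKM against 14.7 ± 3.96 FPKM and was separated. Endothelial genes had a median of 0.39 and 2 separated higher loci of 14, EGFL7 at 69.5 ± 13.2 against 39.6 ± 3.28 FPKM and TIE1 at 30.8 ± 3.74 against 20.8 ± 3.28 FPKM, and summed to 469 to 627.3 FPKM against 312.9 to 460.4 FPKM. The defining vessel gene PECAM1 averaged 106 ± 16.9 FPKM against 85.1 ± 20.6 FPKM and overlapped. The part of these cells in the differences was not tested.

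Of 5 lymphatic vessel genes, a list chosen after values were seen, 3 were separated higher. CCL21, the chemokine of lymphatic vessels, measured 9.56, 11.5, 11.6, 23.7 and 26.8 FPKM against 1.81, 6.81, 1.25, 1.08 and 1.44 FPKM. FLT4, a growth factor receptor of these vessels, averaged 2.67 ± 0.769 FPKM against 1.48 ± 0.355 FPKM, whereas PROX1, the factor that sets lymphatic identity, averaged 1.45 ± 0.617 FPKM against 1.98 ± 0.559 FPKM.

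Genes of fat precursors and fibroblasts held 4 separated higher loci and 1 lower of 15. TWIST2, a transcription factor of mesenchyme, averaged 28.1 ± 17 FPKM against 5.93 ± 1.46 FPKM. PDGFRB, the receptor of perivascular cells, averaged 51.7 ± 5.87 FPKM against 28.3 ± 1.76 FPKM, and LUM, the matrix protein lumican, 175 ± 45.5 against 85.8 ± 7.08 FPKM. Fibrous matrix genes had a median of 0.455 and no locus of 20 counted as separated, a count that uses the zeros of 1417F3L. Their summed level was 16870 to 21710 FPKM against 9808 to 18310 FPKM, with COL1A1 and COL3A1 listed at 0 in 1417F3L. Without that library the log2 difference was 0.70 for COL1A1 and 0.95 for COL3A1, and the COL3A1 locus did not overlap, at 3990 to 6280 against 2310 to 3820 FPKM.

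Several cartilage and bone transcripts were high in single fetuses, and others separated the groups. Of 13 cartilage loci 2 were separated higher and 1 lower, and of 8 tendon loci 1 was separated higher. COL9A2, a cartilage collagen, was separated higher, but its value of 7.5 FPKM in 1404F1L set the mean, and without this fetus the log2 difference was 0.63 and not 1.23. MATN1, a cartilage matrix protein, was at 10.7 FPKM in 1404F1L and at or below 0.744 FPKM in the other rich fetuses. IBSP, the bone sialoprotein, was at 67 FPKM in 1404F5L and 8.74 FPKM in 1404F1L, and at or below 0.145 FPKM in the other 8 fetuses, and the collagenase MMP13 was at 22.8 FPKM in 1404F5L. Fetuses 1404F5L and 1404F1L were the 2 rich males. The poor male 1410F3L held 0 FPKM of IBSP and MMP13, 0.171 of COL9A2 and 0.201 of MATN1. The study reported less COL9A2, MATN1 and MMP13 in Iberian females than in males. It also reported less COL9A2 and MATN1 in Iberian fetuses of low weight. The parts of sex and weight were not tested. COL9A3, another cartilage collagen, was separated higher at 3.35 to 12.9 against 1.85 to 3.15 FPKM, as was CHAD, a matrix protein of cartilage and tendon, at 1.95 to 5.75 against 0.973 to 1.85 FPKM. HAPLN1, a link protein of cartilage, was separated lower at 3.38 ± 2.53 against 9.87 ± 2.05 FPKM. COMP, a matrix protein of tendon and cartilage, was at 0.0826 FPKM in 1410F5L and 9.42 FPKM in 1404F1L, against 4.96 to 20.5 FPKM in the poor fetuses. The cartilage median of 0.491 was -0.253 without the 4 loci, COL9A2 among them, that passed the filter through one group, and -0.194 without sow 1404. The bone median of 0.555 was -0.085 without sow 1404. SPP1, osteopontin, averaged 170 ± 96.2 FPKM against 62.2 ± 23 FPKM and overlapped.

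Of 12 liver-type loci 1 was separated higher, APOA1, a lipoprotein component, at 230, 118, 110, 165 and 128 FPKM against 62, 84.6, 101, 57.5 and 42.3 FPKM. AHSG, the hepatic protein fetuin-A, was at 75.8 FPKM in 1404F5L and 64.7 FPKM in 1404F1L among the rich, at 89.4 FPKM in 1410F3L among the poor, and at or below 14.8 FPKM in the other 7. Fetuses 1404F5L, 1404F1L and 1410F3L were males and the other 7 females. The 6 other Iberian fetuses, 5 of them males, held 0.169 to 4.09 FPKM. The study reported less AHSG in Iberian females than in males, and the part of sex was not tested. The list median of 0.413 was -0.863 without sow 1404. HBB, the beta globin of red cells, averaged 530 ± 305 FPKM against 348 ± 243 FPKM. Of 4 skin and keratin loci 1 was separated, TP63, a factor of skin epithelium, lower at 2.8 ± 1.04 against 6.42 ± 1.45 FPKM. The others, KRT10, DSP and the merged locus of KRT14, overlapped at log2 differences of -0.15, 0.03 and -0.38. The part of neighbouring tissue in the differences was not tested.

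Ribosomal protein genes had a median log2 difference of 0.146 with no separated locus of 17, and cell cycle genes one of 0.228 with 1 of 14 separated lower. Immediate early genes, which respond fast to handling and stress, had a median of 0.286 with 3 of 11 separated higher, namely IER2 at 16.6 ± 2.94 against 9.9 ± 2.2 FPKM, FOSB at 0.852 ± 0.116 against 0.465 ± 0.167 FPKM and EGR1 at 16.6 ± 3.29 against 12.3 ± 0.74 FPKM. FOSB passed the filter through the rich group alone and so had to differ. The part of handling in the differences was not tested. Erythroid genes had a median of 0.347 with no separated locus of 7, and of -0.0906 without sow 1404.

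HOX genes, which carry the head-to-tail address of a cell, were examined after HOXC10 had appeared among the lowest loci. Of 19 HOX loci 3 were separated higher and 4 lower, and HOXC10 among the lower ones passed the filter through the poor group alone. The higher ones were HOXA2 at 1.47 ± 0.467 against 0.682 ± 0.268 FPKM, HOXB2 at 6.91 ± 0.633 against 3.53 ± 0.136 FPKM, and the merged locus of HOXB3 to HOXB6 at 11.9 ± 0.876 against 5.47 ± 1.27 FPKM. HOXB2 measured 7.87, 6.52, 6.22, 6.81 and 7.12 FPKM against 3.57, 3.73, 3.53, 3.36 and 3.48 FPKM, a narrow spread in both groups. The lower ones were HOXC8 at 2.59 ± 0.507 against 5.37 ± 0.65 FPKM, HOXD1 at 2.62 ± 0.465 against 5.15 ± 0.974 FPKM, HOXD8 at 19.1 ± 1.92 against 25.6 ± 3.82 FPKM, and HOXC10, a gene of the lumbar level in mouse, at 0.0381, 0.0453, 0.275, 0 and 0.0236 FPKM against 0.963, 0.663, 3.04, 3.15 and 1.07 FPKM. The relation to the paralogue number was not strict, since HOXD1 was lower and HOXB9 was at a log2 difference of 0.32. The position along the loin from which each sample was cut is not in the labels, and its part was not tested.

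**Figure D4:**
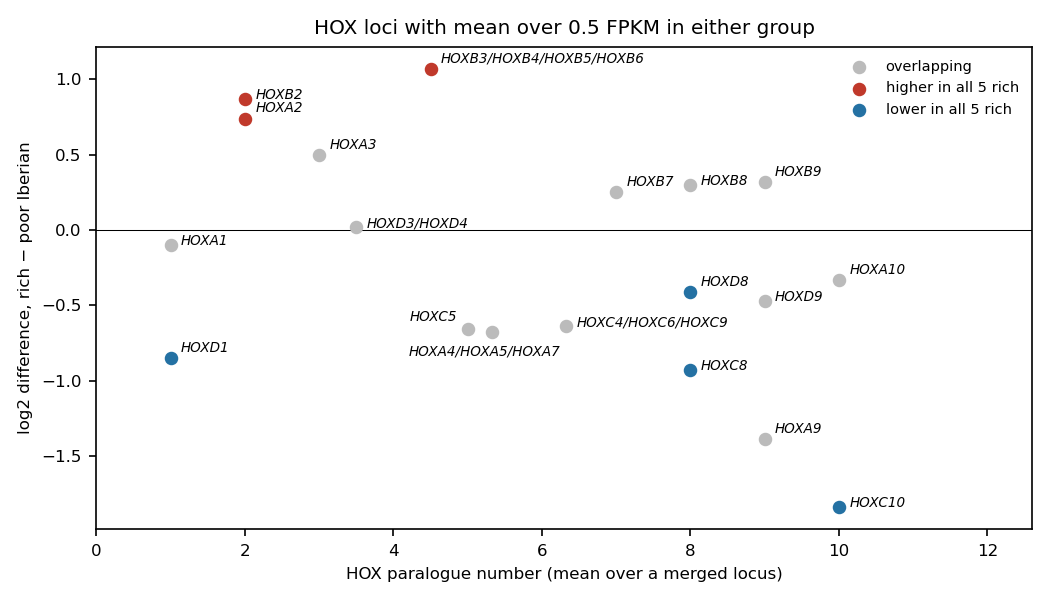
Log2 difference (rich minus poor Iberian fetuses) of the 19 HOX loci with a mean over 0.5 FPKM in either group, against the paralogue number. HOXB2 lies at 0.87 and HOXC10 at -1.84, and HOXD1 (-0.85) and HOXB9 (0.32) depart from a simple order.

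The 2 fetuses just outside the rich group differed from each other. Fetus 1401F8L had a score of 4.1 and held 0.482 FPKM of IGFN1, 2.39 FPKM of ACTN3 and 7.98 FPKM of MSTN, all within the range of the rich fetuses. Fetus 1404F7L had a score of 4.03 and held 3.86, 9.2 and 25.6 FPKM of the same genes, of which the MSTN value lay within the poor range. HOXC10 was at 0.18 FPKM in 1401F8L and at 9.82 FPKM in 1404F7L, a littermate of 3 rich fetuses that held at most 0.0453 FPKM.

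Litter 1410 allowed the comparison within 1 sow, with 1410F5L against its 3 poor littermates. There the log2 difference was 5.12 for DGAT2, 3.29 for PPARG, 1.63 for LPL, -3.28 for IGFN1, -3.74 for ACTN3 and -1.97 for MSTN. The median of the sarcomere list was -0.634 within the litter against -0.655 over the 5 and 5, and that of the myogenic regulators -0.903 against -0.84. The macrophage median was 1.08 within the litter but 0.204 in the 5 and 5 without sow 1410. Bone and liver-type genes, at -0.0669 and -0.921 within the litter, lost the higher medians of 0.555 and 0.413 that they had over all 10 fetuses. With 1 rich fetus in the litter, these are values without a test. That fetus was a female and 1 poor littermate, 1410F3L, was a male, and the part of sex was not tested.

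Whether the same genes followed the score was tested in the 16 crossbred fetuses, as the slope of log2(FPKM + 0.5) on the score for 16282 loci outside the score genes, with limma and Benjamini-Hochberg adjustment. At an adjusted p of at most 0.05, 6 loci had a positive slope (0.0369%) and none a negative one (0%). At an unadjusted p under 0.05 there were 219 positive (1.35%) and 221 negative (1.36%) slopes. PCK1 had a slope of 1.11 ± 0.10 (SE) log2 units per unit of score (limma adjusted p = 2.24e-05), PPARG 0.72 ± 0.08 (limma adjusted p = 0.000198), DGAT2 1.16 ± 0.14 (limma adjusted p = 0.000463), TUSC5 0.95 ± 0.13 (limma adjusted p = 0.00202) and CEBPA 0.63 ± 0.09 (limma adjusted p = 0.00587). The remaining locus has no gene name, lies at 19193345 to 19202975 on chromosome 5 over the position of HOXC10, exceeded 0.5 FPKM in 5 crossbred fetuses and had a slope of 1.01 ± 0.17 (limma adjusted p = 0.0223). It was at or below 0.0148 FPKM in the 10 Iberian fetuses compared.

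Litter mattered to these calls. With the sow as a block, PCK1 alone kept its call (limma adjusted p = 0.0316), while DGAT2 (0.108), PPARG (0.108), TUSC5 (0.0677) and CEBPA (0.181) had slopes of 1.14, 0.57, 0.98 and 0.4 that no longer passed. With the sow as a random effect all 6 passed. Without fetus 1401F7L, which had the highest crossbred score, 3 loci passed, namely DGAT2, PCK1 and PPARG, and without the 2 fetuses farthest from the median score (1401F7L and 1340F9L) 2 passed, DGAT2 and PCK1. In these reduced sets CEBPA had limma adjusted p-values of 0.11 and 0.643, and TUSC5, too low there for the filter, was not fitted.

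The muscle genes that differed in the Iberian fetuses had no slope that passed the test in the crossbred fetuses. The slope was -0.09 ± 0.20 for IGFN1, 0.05 ± 0.28 for ACTN3, 0.02 ± 0.12 for MYH8, -0.12 ± 0.20 for MSTN and -0.21 ± 0.14 for PAX7 (limma adjusted p = 1 for each). The median slope was -0.0292 over 33 sarcomere loci and -0.0505 over 16 myogenic regulators, against 0.00488 over all loci. Crossbred fetuses held 3.85 to 23.5 FPKM of IGFN1 and 6.17 to 71.6 FPKM of ACTN3, so that every crossbred fetus had more IGFN1 than every rich Iberian fetus. Their scores also reached only 3.66, below the rich range, and a slope at higher scores was not measured. When the method was tried on loci with a known slope, it called 87 of 100 with a slope of 1. Of 100 loci with a slope of log2(1.3) it called 26, so most slopes of that size were missed. The trial held all these slopes at once, and the adjustment is looser where more loci pass. In the crossbred fetuses 6 loci outside the score genes passed, so both shares can overstate what would be called there.

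THRSP and FASN, higher in the rich Iberian fetuses, had crossbred slopes of 0.32 ± 0.35 and 0.02 ± 0.09 (limma adjusted p = 1 for each). LPL (0.52 ± 0.17), EFEMP1 (0.52 ± 0.16), APOE (0.56 ± 0.14), FCN2 (0.89 ± 0.21) and ABHD5 (0.41 ± 0.10) had positive slopes with unadjusted limma p-values of 0.00661, 0.00387, 0.00105, 0.000488 and 0.00053, none of which passed the adjustment. HOXC10 had a slope of 1.41 ± 0.40 and HOXA10 of 2.21 ± 0.45 (limma adjusted p = 1 and 0.203), beside Iberian log2 differences of -1.84 and -0.33. The Iberian direction of HOXA10 was not established, since its groups overlapped, its mean FPKM was higher in the rich fetuses (1.03 ± 2 against 0.853 ± 0.685) and the difference was -0.93 without 1404F1L. HOXA10 passed when crossbred fetus 1417F7L was left out. HOXC8 had a slope of -0.35 ± 0.09 (limma adjusted p = 0.988), of the same sign as in the Iberian fetuses.

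Of the 607 loci separated higher in the rich Iberian fetuses that could also be fitted in the crossbred fetuses, 461 (75.9%) had a positive slope, against 52.3% of all 15790 loci fitted in both, and 5 (0.824%) passed the test. Of the 915 separated lower, 605 (66.1%) had a negative and 310 (33.9%) a positive slope, against 47.7% negative among all loci, and none passed the test, with 44 (4.81%) negative at an unadjusted p under 0.05.

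**Figure D5:**
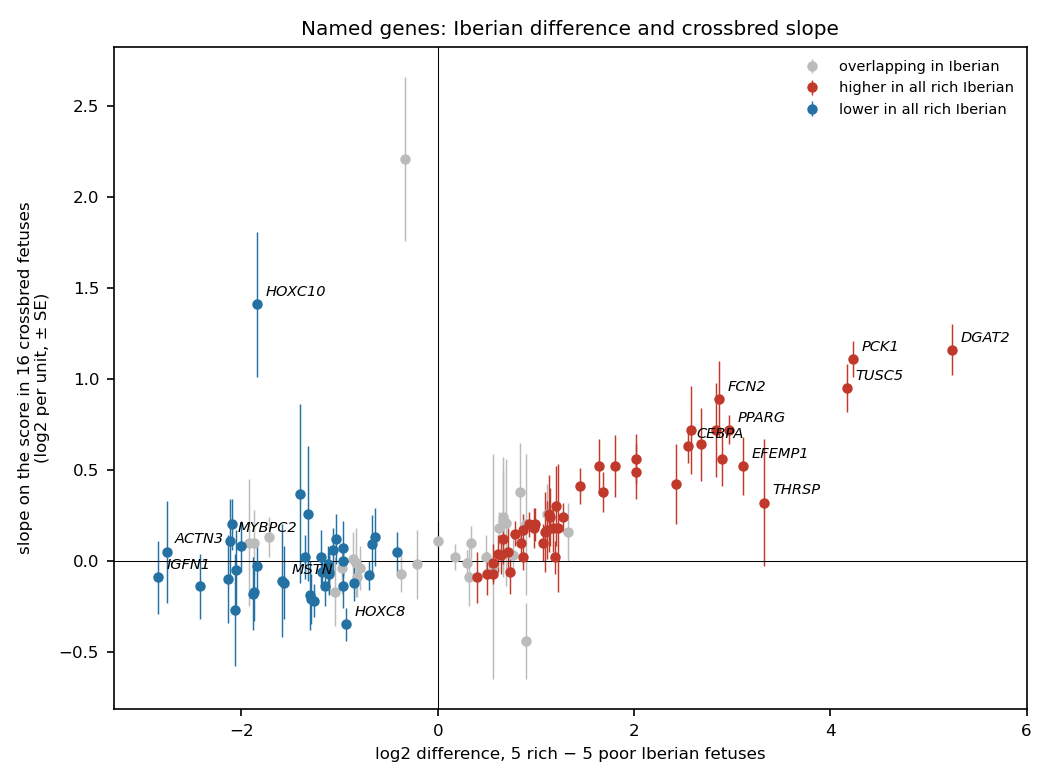
Slope on the score in 16 crossbred fetuses (vertical axis, log2 per unit of score, bars ± SE) against the log2 difference between rich and poor Iberian fetuses for the genes described in the text. PCK1 and DGAT2 have slopes of 1.11 and 1.16, IGFN1 and ACTN3 lie near 0 at -0.09 and 0.05, and HOXC10 combines a difference of -1.84 with a slope of 1.41.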

How the data were processed

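RNA of the longissimus dorsi was sequenced from unstranded mRNA libraries as paired reads. Per the labels and the study's methods, the authors trimmed reads with Trim Galore, aligned them to Sscrofa11.1 with TopHat2 2.1.0 and Bowtie2, assembled and merged transcripts with Cufflinks 2.2.1, and quantified them with Cuffquant and Cuffdiff with bias correction and rescue of multiply mapped reads. The deposited values are FPKM per merged locus (30413 loci), without counts. Neighbouring genes can share a merged locus, and without strand a gene and its antisense partner cannot be told apart. Depth is therefore known only as a relative value (0.696 to 1.41 over 32 libraries), which limits low values most.

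The score was the mean log2(FPKM + 0.5) of the locus of highest mean for each of 4 symbols. Log2 differences are on the log2(FPKM + 0.5) scale, which understates changes of low genes, and loci with a mean of at most 0.5 FPKM in both groups were left out. Separated loci had no overlap between 5 and 5 fetuses and a difference of at least 1.3-fold. Crossbred slopes were fitted with limma 3.58.1 (R 4.3.3, eBayes with trend, Benjamini-Hochberg, two-sided), after the method had been tested on simulated data. There it called 87 of 100 loci with a slope of 1 and 26 of 100 with a slope of log2(1.3). Of 16085 loci without a slope it called 6. More loci passed there than in the fetuses, so the adjustment was looser and the shares can be too high. Nothing in the labels states how the samples were repeated beyond 1 library per fetus, and littermates share a sow, so p-values measure only the spread between these fetuses. RefSeq Sscrofa11.1 gave the promoter sequences and coordinates.

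Named genes were the score genes, the 15 separated loci with a symbol with the largest difference in each direction, the called crossbred loci, up to 6 members of each gene list by size of difference with its defining members, and genes the study names for fat or muscle in Iberian pigs. The groups, lists and tests were chosen with earlier results of these data known. The HOX and lymphatic lists, the genes with printed promoters and the settings without sow 1404 or sow 1410 were chosen after values were seen, as were the genes in the text that fall outside the rule. Alternatives covered the pseudocount, the filter, the scaling, the score genes, group size, the sow, sex and leaving out single fetuses.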

Additional observations from a re-analysis of the deposited data

Results flagged for a closer look

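In groups of 5, a fetus was singled out where its gap to the nearest of the others was a larger share of the group's range than Dixon's critical value. This held for 26 of 240 gene groups (10.8%), the score genes aside, 14 among the rich and 12 among the poor fetuses. The critical value gives about 5% by chance for normally distributed values, which untransformed FPKM need not be. Many of the genes were chosen for their differences, and their list was cut after such flags had been seen. The share is therefore a description and not a test. In 1340F7L (poor) 7 genes stood out: MOGAT1 at 40.7 FPKM, CD163 at 16.5, FBXO32 at 27.6, TRIM63 at 19.1, COMP at 20.5 and COL3A1 at 3820 were its high values and PAX7 at 13.3 its low value. The next values were 17.6 for MOGAT1, 3.75 for CD163, 7.15 for FBXO32 and 9.33 for TRIM63.

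In 1417F3L (rich) GPX3 stood out at 84.4 FPKM, APOE at 1130, CFD at 71.5 and TWIST2 at 57.3, and COL1A1 was listed at 0. In 1404F1L (rich) HAPLN1 at 7.79 FPKM, COL9A2 at 7.5, COL9A3 at 12.9, MATN1 at 10.7 and HOXA10 at 4.6 stood out, the last against 0.341 FPKM in the next fetus. In 1404F5L (rich) IBSP stood out at 67 FPKM, MMP13 at 22.8 and CKM at 669. HOXC10 at 0.275 FPKM stood out in 1410F5L (rich).

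Among the other poor fetuses, 1410F3L stood out for PNPLA3 at 0.285 FPKM and AHSG at 89.4. Fetus 1410F6L stood out for CCL21 at 6.81 FPKM and VIT at 4.21, and 1410F2L for low LUM at 73.3 FPKM.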

How the results depend on the processing

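The counts of separated loci, 722 higher and 952 lower, depended most on how many fetuses entered. With 8 against 8 they were 52 and 94, with a fold of at least 2 they were 187 and 279, without sow 1404 they were 1788 and 2405, and without sow 1410 they were 1183 and 1788; fewer fetuses make non-overlap easier by construction. Leaving out 1 of the 10 fetuses gave 744 to 1024 higher and 931 to 1326 lower. The other alternatives kept both counts within 1.5 times. Of at most 124 gene differences, 34 moved by more than the spread between fetuses without sow 1404, 26 with 8 against 8, 19 with a pseudocount of 0.1, 14 with a pseudocount of 1 and 5 without sow 1410. Of 38 list medians, 5 moved without sow 1404, where that of the myogenic regulators was -1.18, and 5 without sow 1410. The 6 positive crossbred calls were 10 without the filter, 1 with the sow as a replicate block, 2 without the 2 fetuses farthest from the median score and 3 to 7 when 1 fetus was left out, and the cause was not tested. Negative calls were 0 under each setting run. The sow block, under which 3417 loci had an unadjusted p under 0.05 against 440 without it, changed the calls named above. Of the single-gene slopes under alternatives 3775 kept their status, called or not, 7 lost a call and 1 gained one. No direction of a called result was reversed. Most of these genes were uncalled throughout, so the count says little on the called ones. CEBPA kept its call in 30 of 33 settings, PPARG in 31, DGAT2 in 32 and PCK1 in 33. TUSC5 kept it in 29 of the 30 settings in which it was fitted. Sex differences in the score stayed past no threshold (permutation p of 0.588 to 0.77). Without read counts, the precision of low FPKM values is unknown.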
